A study of Mus musculus with 6 samples.

Results

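The semaphorins, plexins and neuropilins are a family of guidance ligands and their receptors. The members were the protein-coding mouse genes whose symbols name a semaphorin of class 3 to class 7, a plexin (A to D) or a neuropilin (Nrp1 and Nrp2). This gave 31 genes of the 39017 identifiers in the count table, namely 20 semaphorins, 9 plexins and 2 neuropilins, and all 31 passed the filter on low counts. The RNA sequenced was that bound to tagged ribosomes of the corpus callosum, the large bundle of myelinated axons between the hemispheres, in C57BL/6 mice that all carried both RiboTag and Olig1-Cre. Where Cre has acted, the ribosomal protein RPL22 of a cell is made with an HA epitope, and antibody to HA then recovers the ribosomes of those cells together with the RNA they hold. Olig1 drives Cre across the oligodendrocyte lineage, so the captured RNA can come from progenitors as well as from myelinating cells. There were 3 control libraries, labelled Vehicle in their titles (replicates 24, 26 and 27), and 3 from mice given 0.2% cuprizone in the diet (replicates 30, 31 and 32). Cuprizone binds copper, and oligodendrocytes and their myelin are lost during feeding. Female mice of 8 to 10 weeks are named in the protocol, which mentions 6 or 9 weeks of feeding and 3 weeks of recovery, and the stage of the cuprizone libraries is not stated. The labels do not say whether a library is 1 animal, so the p-values measure the spread between these libraries.

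Semaphorins are secreted (class 3), transmembrane (classes 4, 5 and 6) or anchored to the membrane by a lipid (class 7), and they steer growing axons and migrating cells. Plexins are their signalling receptors. Most class 3 semaphorins need a neuropilin, which binds the ligand and lends its plexin A partner the specificity it lacks. In the oligodendrocyte lineage Sema3a and Sema3f are known to act on the migration of progenitors, and Sema4d is known as a ligand on oligodendrocytes.

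The controls held 18549360 to 18771737 counts a library and the cuprizone group 19455245 to 22381307. Replicate 32 was unlike the rest of the cuprizone group. Its counts gave chi-square values of 85.1 and 101 per degree of freedom when set against replicates 30 and 31, whereas that pair gave 26.6. Rpl22, the tagged gene, had a level of 70.4 ± 7.14 in the controls and 76.4 ± 9.97 under cuprizone in CPM, the count scaled to library size (SD, n = 3). Of 20 markers of myelinating oligodendrocytes all 20 fell (median log2 fold change -3.22), and their summed level went from 67851 to 89139 CPM in control libraries down to 8915 to 17028 CPM in cuprizone libraries. Mbp, which encodes a main protein of compact myelin, had a log2 fold change of -2.62 (adjusted p = 0.0104, and 0.0558 without cuprizone replicate 30). With a library left out 17 to 20 of the 20 passed, the lowest counts being those without control replicate 26 and without cuprizone replicate 30. In RNA pulled down with tagged ribosomes from pooled cells, fewer cells of a type and less captured RNA per cell cannot be told apart. RNA of other cell types was captured too, and no marker on their lists was at 0 in any library. The astrocyte list summed to 26600 to 29360 CPM in control and 18232 to 35100 CPM in cuprizone. The microglia and macrophage list summed to 1542 to 3211 CPM and 2436 to 6109 CPM, the neuron list to 3657 to 4892 CPM and 4158 to 8582 CPM, and the endothelial and mural list to 64.3 to 82.0 CPM and 67.8 to 254 CPM, in the same order. In each of the last 3 lists replicate 32 was the highest library.

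The highest levels in the family were those of a few transmembrane or anchored semaphorins and the B plexins. Levels of different genes are compared as CPM per kilobase of exon. On that scale Sema4d was the highest in control, at 41.3, followed by Plxnb1 at 38.9 and Sema7a at 37.6. Sema4d ranged from 37.1 to 44.2, Plxnb1 from 34.9 to 42.4 and Sema7a from 31.2 to 42.6, so these levels were not separated beyond their spread. Sema6a ranged from 26.7 to 27.2 in control, and its neighbours were Sema6b at a mean of 21.3, Plxnb2 at 19.7, Plxnb3 at 18.3 and Sema6d at 17.9, and every other member was at 6.57 or lower. Sema4d stood at percentile 92.3 of the control levels of all genes tested, and Plxnb3 at percentile 81.3. The 6 lowest members were class 3 semaphorins, from 1.52 for Sema3d down to 0.144 for Sema3g, while Sema3b was at 2.11. Sema3g rested on 7 to 20 reads a library. By mean the order at the top changed in cuprizone, where Plxnb1 (33.5), Plxnb2 (30.4) and Sema6b (27.4) came first. Sema7a (22.0) and Sema4d (19.8) followed. The cuprizone libraries did not share this order. Plxnb1 was at 42.5, 40.6 and 17.3 in replicates 30, 31 and 32, and Sema6b at 26.4, 20.2 and 35.6.

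**Figure D1:**
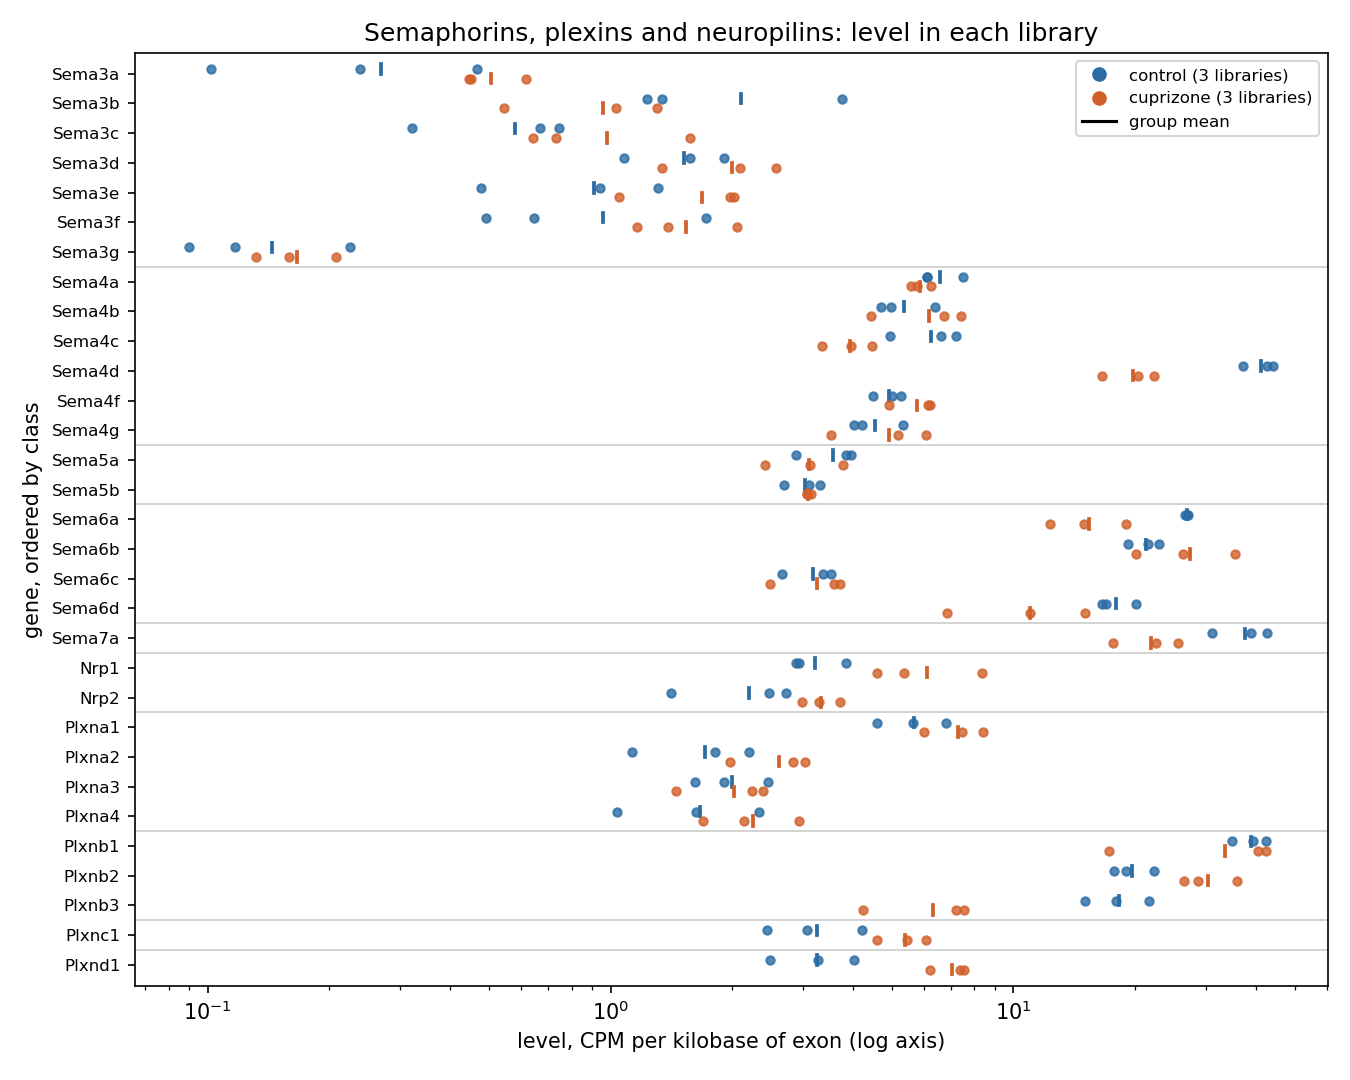
Level of each of the 31 genes in CPM per kilobase of exon (horizontal log axis), with points for the 3 control (blue) and 3 cuprizone (orange) libraries, a vertical tick for each group mean, and genes ordered by class. In control Sema4d, Plxnb1 and Sema7a lead by mean and 6 of the 7 class 3 semaphorins lie lowest, while in cuprizone all 7 do. The blue and orange points are apart for 6 genes lower in cuprizone, Sema4d, Sema6a, Sema7a and Plxnb3 among them, and for 5 higher.

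Of the 31 members 4 fell (12.9%) and 1 rose (3.23%) in the cuprizone libraries at a Benjamini-Hochberg adjusted p of 0.05 with edgeR's quasi-likelihood test. Over all 16569 genes tested, 5.70% were lower and 1.87% higher. The genes that fell were the ligands Sema4d, Sema6a and Sema7a and the receptor Plxnb3, and the gene that rose was the receptor Plxnd1. The median log2 fold change of the members was 0.21, against 0.02 over all genes, and 21 of 31 were positive (67.7%, against 52.6%). The groups did not overlap for 6 members lower in cuprizone (19.4%) and 5 higher (16.1%), where 17.6% and 12.6% of all genes behaved in these ways, so the shares were near the background. The counts depended on single libraries. Without control replicate 24 or cuprizone replicate 30 none rose and 2 fell, without control replicate 26 1 rose and none fell, without control replicate 27 1 rose and 2 fell, and without cuprizone replicate 32 2 rose and 4 fell. DESeq2 called 4 higher and 5 lower, and its further calls were Nrp1, Plxnb2 and Plxnc1 upward and Sema4c downward. In every one of these fits the 5 genes kept the sign of their fold change.

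**Figure D2:**
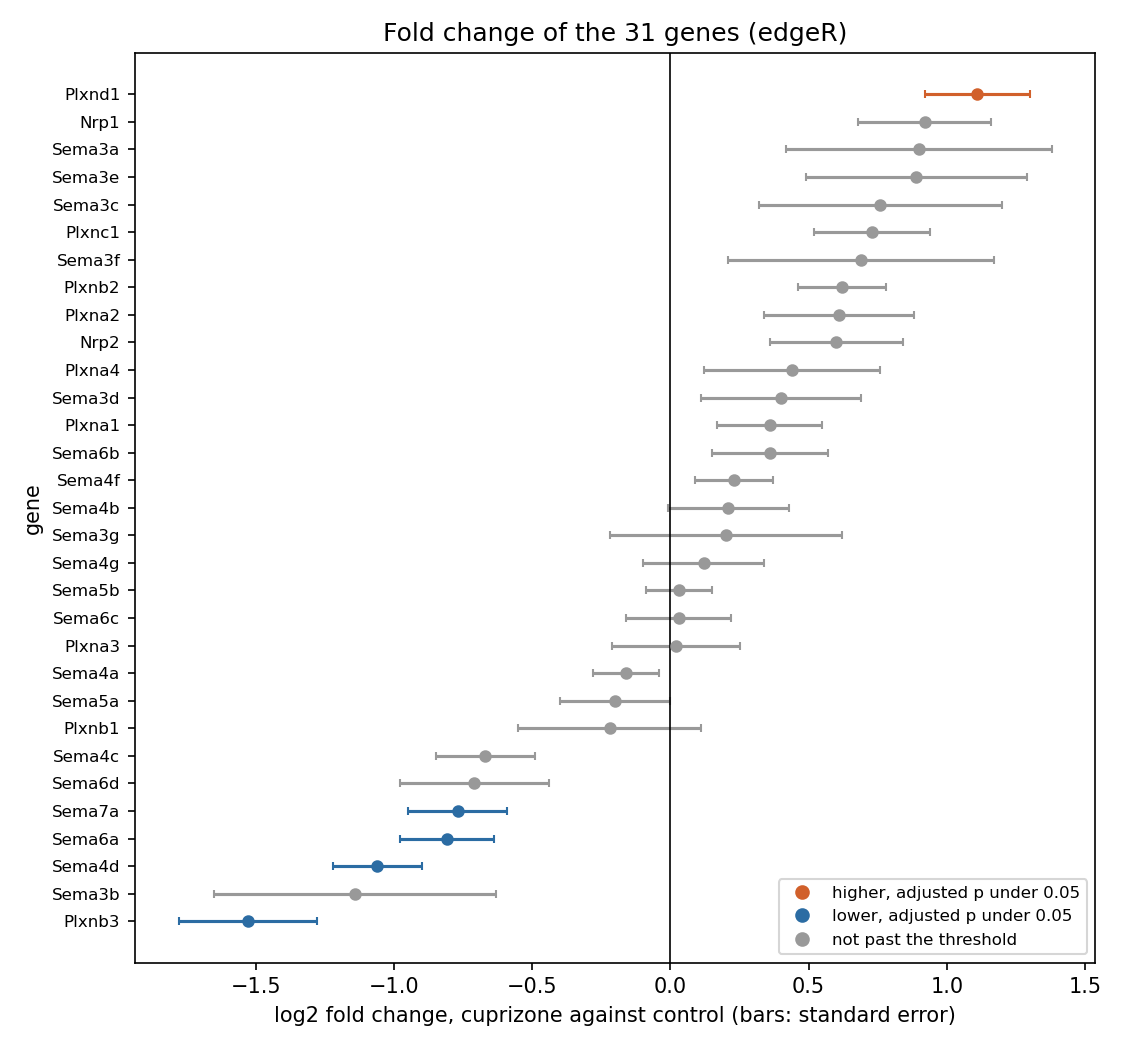
Log2 fold change of cuprizone against control for each gene (horizontal axis, bars are the standard error), ordered by size, with genes past the adjusted p of 0.05 in blue (lower) or orange (higher) and the others in grey. Plxnb3 at -1.53, Sema4d at -1.06, Sema6a at -0.81 and Sema7a at -0.77 lie to the left and Plxnd1 at 1.11 to the right.

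Sema4d encodes a transmembrane ligand of plexin-B1 (ENSMUSG00000021451, chromosome 13, 51685529 to 51793747 in GRCm38, minus strand). It was at 327, 339 and 285 CPM in control replicates 24, 26 and 27 and at 157, 172 and 127 CPM in cuprizone replicates 30, 31 and 32. Every cuprizone library lay below every control library. The log2 fold change was -1.06 ± 0.16 (SE, adjusted p = 0.00930), and the adjusted p was 0.0518 without control replicate 26.

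Among the other class 4 semaphorins no gene passed with edgeR. Sema4c, a ligand of plexin-B2, was at 30.4, 33.0 and 22.7 CPM in the controls and 20.5, 18.2 and 15.4 CPM with cuprizone. Its groups did not overlap, and its log2 fold change of -0.67 had an adjusted p of 0.0711. Some of its exon bases also belong to a gene on the opposite strand, and whether strand was used in counting was not stated. Sema4a, Sema4b, Sema4f and Sema4g had log2 fold changes from -0.16 to 0.23, and their groups overlapped. Sema4a, for example, was at 35.5 ± 4.33 CPM in the controls and 31.7 ± 1.87 CPM with cuprizone (SD, n = 3). The class total went from 68.9 ± 7.12 to 46.4 ± 6.01 CPM per kilobase, of which Sema4d was 41.3 and 19.8.

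Sema6a, a transmembrane ligand of plexin-A2 and plexin-A4 (ENSMUSG00000019647), had closely matched controls, at 237, 239 and 234 CPM. It was at 132, 167 and 108 CPM in cuprizone replicates 30, 31 and 32. The control libraries all lay above the cuprizone libraries, which spread more widely. The log2 fold change was -0.81 ± 0.17 (adjusted p = 0.0350), and it did not pass on dropping any control or dropping cuprizone replicate 30 (adjusted p from 0.107 to 0.127). Sema6d, a ligand of plexin-A1, showed the same order of groups, with 176, 213 and 179 CPM against 159, 116 and 72.1 CPM, and its log2 fold change of -0.71 ± 0.27 had an adjusted p of 0.177. Sema6b, a ligand of plexin-A4, was at 76.7, 91.4 and 85.7 CPM in the controls and 105, 80.0 and 141 CPM with cuprizone. Its groups overlapped, with replicate 32 the highest library, and its log2 fold change was 0.36 ± 0.21 (adjusted p = 0.348). Sema6c had 18.9 ± 2.72 CPM and 19.4 ± 3.97 CPM. The class therefore held a member that fell and others whose differences did not pass, and its total went from 69.4 ± 4.23 to 57.0 ± 3.92 CPM per kilobase.

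Sema7a, the only class 7 member, encodes a lipid-anchored semaphorin that binds plexin-C1 and integrins with the beta1 chain (ENSMUSG00000038264, chromosome 9, 57940112 to 57962865, plus strand). It was at 103, 141 and 128 CPM in control and at 74.6, 58.2 and 84.7 CPM in cuprizone replicates 30, 31 and 32. The groups did not overlap, and here replicate 32 was the highest of the cuprizone libraries. The log2 fold change was -0.77 ± 0.18 and the adjusted p 0.0480, close to the threshold. It was 0.0512 with RLE scaling, 0.0644 with upper-quartile scaling and from 0.0678 to 0.163 on dropping control replicate 24, 26 or 27 or cuprizone replicate 30 or 31.

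No class 5 or class 3 semaphorin passed in any fit, whether by edgeR, DESeq2 or limma-voom, and for edgeR 0 of the 9 had an unadjusted p under 0.05. Sema5a, a ligand of plexin-B3, was at 73.8, 71.7 and 53.9 CPM in the controls and 70.4, 58.3 and 45.1 CPM with cuprizone, and Sema5b was at 21.5 ± 2.28 CPM and 21.9 ± 0.327 CPM. Of the 7 class 3 genes 6 had positive log2 fold changes, from 0.20 to 0.90, with standard errors of 0.29 to 0.48. Sema3a, which acts through Nrp1, was at 1.41, 6.46 and 3.32 CPM in the controls and 8.57, 6.16 and 6.23 CPM with cuprizone. Sema3f, which acts through Nrp2, was at 3.36, 2.55 and 8.97 CPM and 7.21, 6.03 and 10.7 CPM. Control replicate 27 was the highest control for Sema3f and also for Sema3b, at 17.9 CPM against 6.42 and 5.89 CPM. The log2 fold change of Sema3b moved from -1.14 to -0.43 without that library. Sema3e, the ligand of plexin-D1, was at 8.43 ± 3.86 CPM and 15.6 ± 5.14 CPM (0.89 ± 0.40, adjusted p = 0.233). The groups overlapped for all 7 class 3 genes.

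The B plexins did not share a direction: Plxnb3 fell, Plxnb2 lay above its controls without passing, and Plxnb1 overlapped. Plxnb3, a receptor of Sema5a (ENSMUSG00000031385, chromosome X, 73757090 to 73772514, plus strand), had the largest fall of the family. It was at 117, 141 and 97.8 CPM in control and at 46.8, 49.0 and 27.6 CPM in cuprizone replicates 30, 31 and 32. Every control library lay well above every cuprizone library. On the log2 scale the difference was -1.53 ± 0.25 (adjusted p = 0.0126), and the adjusted p was 0.0562 without control replicate 26. Plxnb2 lay the other way, at 172, 138 and 147 CPM in the controls and 277, 221 and 205 CPM with cuprizone. Its groups did not overlap, its log2 fold change of 0.62 ± 0.16 had an adjusted p of 0.0676, and it passed without cuprizone replicate 32 (0.0352) and with DESeq2 (0.00559).

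Plxnb1, the receptor of Sema4d, split the cuprizone libraries. It was at 334, 407 and 377 CPM in control and at 408, 390 and 166 CPM in cuprizone replicates 30, 31 and 32. Replicates 30 and 31 lay within or just above the control range and replicate 32 far below it. The log2 fold change was -0.22 ± 0.33 (adjusted p = 0.741) and 0.10 without replicate 32. The astrocyte list was lowest in that library too, at 18232 CPM, as were the progenitor list at 1519 CPM, the newly formed oligodendrocyte list at 1458 CPM and the myelinating list at 8915 CPM. In replicate 30 the newly formed and myelinating lists were nearly as low, at 1555 and 9304 CPM. The astrocyte and progenitor lists were at 29732 and 2371 CPM in replicate 30. The part of these cell types in the Plxnb1 value was not tested. On the per-kilobase scale, Plxnb3 was 23.9%, 26.5% and 20.5% of the summed level of the B plexins in control and 8.43%, 9.83% and 8.82% in cuprizone. The share of Plxnb2 was 29.7%, 21.8% and 25.9% in control and 41.9%, 37.3% and 55.2% in cuprizone. That of Plxnb1 was 46.4%, 51.7% and 53.6% in control and 49.6%, 52.9% and 36.0% in cuprizone. The shares depend on each other. Plxnb2 had its largest share in replicate 32, where its own level was the lowest of the cuprizone group (26.6 CPM per kilobase, against 35.9 and 28.7). The shares of Plxnb3 and Plxnb2 did not overlap between the groups, and no test was made of the shares. The summed level itself was 76.9 ± 4.52 in control and 70.2 ± 19.6 CPM per kilobase in cuprizone.

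**Figure D3:**
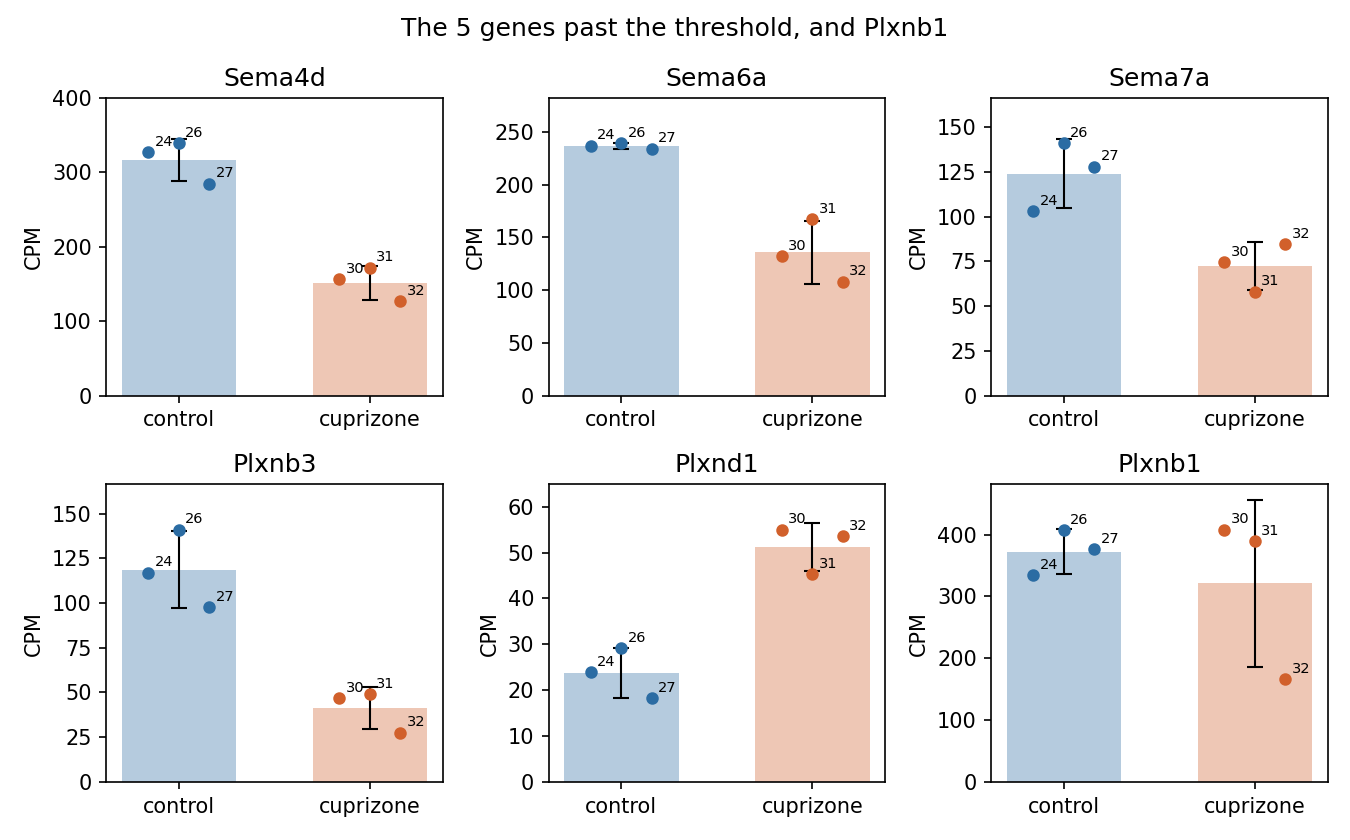
CPM in each library (points, numbered by replicate) for the 5 genes past the threshold and for Plxnb1, with bars from 0 for the group mean and error bars for the SD of 3 libraries. In the first 5 panels the groups are apart, while for Plxnb1 cuprizone replicates 30 and 31 (408 and 390 CPM) sit with the controls and replicate 32 (166 CPM) does not.

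Plxnd1, a receptor best known in blood vessels and bound by Sema3e (ENSMUSG00000030123, chromosome 6, 115954811 to 115995005, minus strand), was the member that rose. It was at 23.9, 29.2 and 18.2 CPM in control and at 55.0, 45.3 and 53.6 CPM in cuprizone replicates 30, 31 and 32. The cuprizone libraries all lay above the controls and close to each other. Its log2 fold change was 1.11 ± 0.19 (adjusted p = 0.0146), with an adjusted p of 0.0620 without control replicate 24 and 0.0603 without cuprizone replicate 30. Of 14 endothelial and mural markers tested none passed with edgeR or limma-voom, 3 were higher with DESeq2 and without cuprizone replicate 31, and 5 had an unadjusted p under 0.05. Their median log2 fold change was 1.15, and their sum was 129, 67.8 and 254 CPM in cuprizone replicates 30, 31 and 32, against 64.3 to 82.0 CPM in control. Cldn5 and Pecam1, which define endothelial cells, were at 3.14 and 1.43 CPM in the controls and 7.16 and 3.11 CPM with cuprizone. The part of endothelial RNA in the Plxnd1 value was not tested.

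Plxnc1, the receptor of Sema7a, was at 25.7, 35.2 and 20.4 CPM in the controls and 50.7, 45.5 and 38.3 CPM with cuprizone. The groups did not overlap, and the log2 fold change of 0.73 ± 0.21 had an adjusted p of 0.0964 with edgeR and 0.0270 with DESeq2. The 4 A plexins had log2 fold changes of 0.02 to 0.61 and overlapping groups. Plxna1 was the highest of them per kilobase, at 5.67 in control and 7.30 in cuprizone, and Plxna2, a receptor of Sema6a, was at 29.5 ± 9.38 CPM and 45.0 ± 9.64 CPM (adjusted p = 0.229). Plxna3 ranged from 12.8 to 19.4 CPM and from 11.5 to 18.8 CPM. Plxna4, also a receptor of Sema6a, had 23.5 ± 9.11 CPM and 31.9 ± 8.85 CPM. Exon bases of Plxna1, Plxna4 and Plxnb1 are shared with a gene on the opposite strand, and those of Nrp1, Plxnc1 and Sema4a with a gene on the same strand, while the 5 genes past the threshold share none with any annotated gene.

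Both neuropilins lay above their controls in every cuprizone library without passing. Nrp1 was at 37.5, 28.2 and 28.7 CPM in control and 45.0, 52.4 and 81.7 CPM in cuprizone replicates 30, 31 and 32. On the log2 scale the difference was 0.92 ± 0.24, with an adjusted p of 0.0690 with edgeR and 0.00727 with DESeq2. The microglia and macrophage list, with a median log2 fold change of 0.83, was also highest in replicate 32, at 6109 CPM, and none of its 16 genes passed with edgeR or limma-voom, while 2 were higher with DESeq2 and 4 had an unadjusted p under 0.05. Without that library Nrp1 had a log2 fold change of 0.63 (adjusted p = 0.0641). The neuron list and the endothelial and mural list were highest in replicate 32 too, at 8582 and 254 CPM. The part of microglial, neuronal or endothelial and mural RNA in the Nrp1 value was not tested. Nrp2 was at 29.4, 32.3 and 16.7 CPM in the controls and 44.0, 39.1 and 35.4 CPM with cuprizone (0.60 ± 0.24, adjusted p = 0.197).

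**Figure D4:**
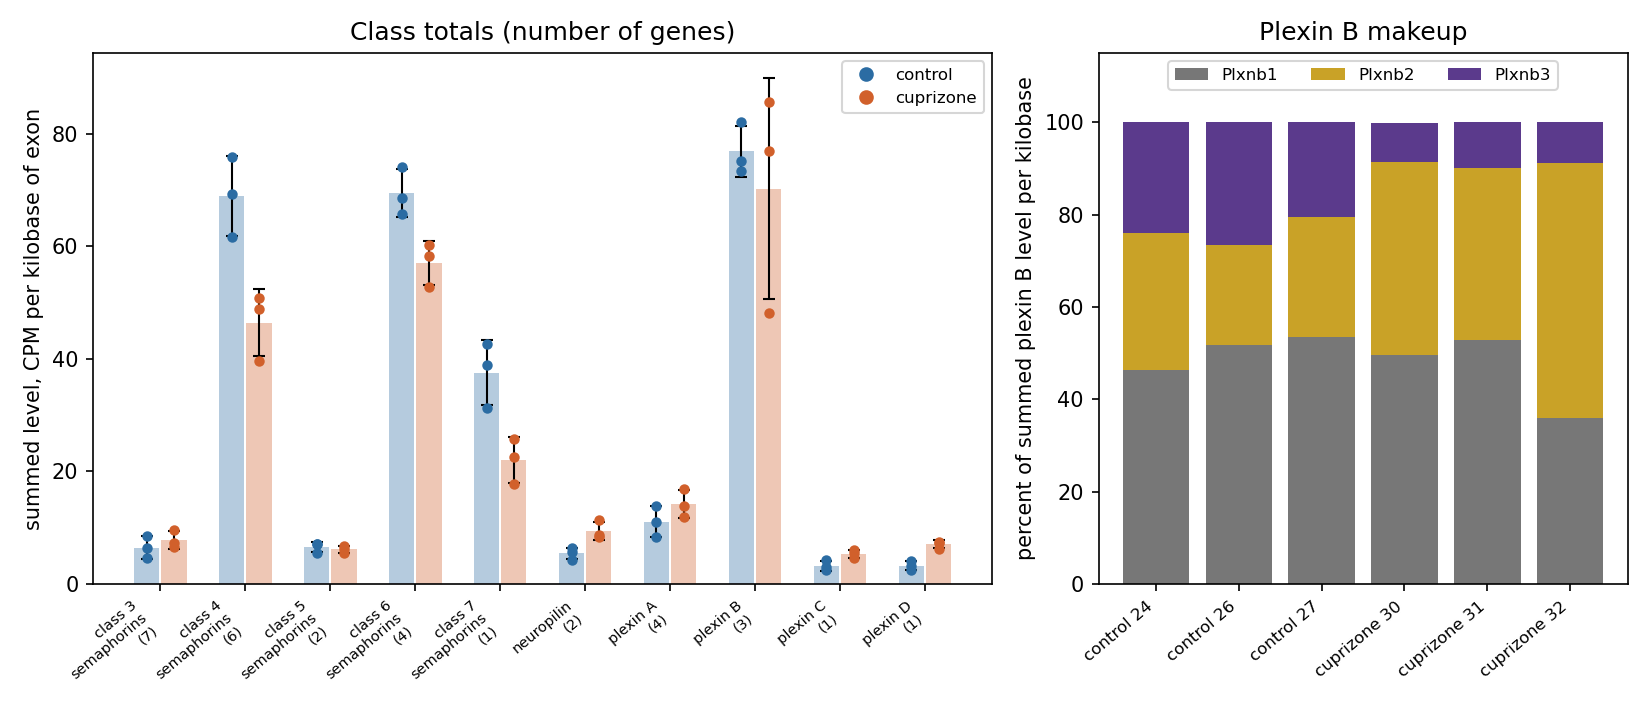
Left, summed level of each class in CPM per kilobase of exon, with bars for the mean, error bars for the SD and points for the 3 libraries of control (blue) and cuprizone (orange). Right, share of Plxnb1, Plxnb2 and Plxnb3 in the summed plexin B level of each library in percent, where Plxnb3 holds 20.5% to 26.5% in control and 8.43% to 9.83% in cuprizone.

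Summed over the 20 semaphorins the level was 178, 206 and 183 CPM per kilobase in control and 150, 132 and 136 in cuprizone, so on this scale the sum was lower in every cuprizone library than in any control. The sum is set by the few abundant genes: 12 of the 20 semaphorins had positive log2 fold changes, and their median was 0.08. Summed over the 9 plexins it was 89.9, 104 and 89.3 in control and 116, 100 and 73.9 in cuprizone, and the groups overlapped. Of the ligands that fell, Sema4d and Sema6a had the highest control levels in their classes, and Sema7a is the only member of its class. Known pairs of ligand and receptor had values of either sign. For Sema4d and Plxnb1 the log2 fold changes were -1.06 and -0.22, the latter 0.10 without cuprizone replicate 32. They were -0.77 and 0.73 for Sema7a and Plxnc1, and -0.20 and -1.53 for Sema5a and Plxnb3. For Sema4c and Plxnb2 they were -0.67 and 0.62, and for Sema3e and Plxnd1 0.89 and 1.11. Sema6a had -0.81, with Plxna2 at 0.61 and Plxna4 at 0.44. Sema6d and Plxna1 had -0.71 and 0.36, and Sema6b and Plxna4 0.36 and 0.44. Sema3a and Nrp1 had 0.90 and 0.92, and Sema3f and Nrp2 0.69 and 0.60. The difference within a pair was not tested.

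The log2 fold changes of the myelinating list, whose genes were picked as markers, ran from -5.20 to -1.81. Every member of the family, with Plxnb3 lowest at -1.53, lay outside that range, and this difference was not tested. Enpp6, made as oligodendrocytes begin to differentiate, was the 1 gene of 12 in the newly formed oligodendrocyte list that fell (-1.18, adjusted p = 0.0185, and 0.0599 to 0.0758 on leaving out any 1 control). Bcas1 of the same list had -0.74 with an adjusted p of 0.250. With DESeq2 4 genes of this list were lower, without cuprizone replicate 31 2 were lower, and without cuprizone replicate 32 1 was lower and 1 higher. In the progenitor list 1 of 12 fell, Sox10, a transcription factor of the whole lineage (-1.25, adjusted p = 0.0289, and 0.0829 to 0.116 on dropping any control or cuprizone replicate 30). Without cuprizone replicate 31 2 of this list were lower. The progenitor markers Pdgfra and Cspg4 did not pass, at 180 and 83.0 CPM in the controls and 144 and 82.0 CPM with cuprizone. Olig1 itself, whose promoter drives Cre, had a log2 fold change of -1.12 (adjusted p = 0.0334, and 0.0949 to 0.113 without the same libraries as for Sox10). The part of a smaller share of oligodendrocyte RNA in the falls of Sema4d, Sema6a, Sema7a and Plxnb3 was not tested.

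Promoter windows of 300 bases, from 250 before to 50 after an annotated start, are shown for the 3 genes past the threshold that have a single RefSeq window (GRCm38.p6). They are printed 5′ to 3′ on the gene's strand, to show what letters lie at the starts of a ligand and a receptor that fell and of the receptor that rose. Capitals mark the GC box GGGCGG, the core ACAAAG bound by SOX factors, the MYRF cores CTGGCAC and CTGGTAC, and the E-box CAGCTG, each searched on both strands. None of these matches overlaps another.
Plxnb3, chrX:73756853-73757152, plus strand: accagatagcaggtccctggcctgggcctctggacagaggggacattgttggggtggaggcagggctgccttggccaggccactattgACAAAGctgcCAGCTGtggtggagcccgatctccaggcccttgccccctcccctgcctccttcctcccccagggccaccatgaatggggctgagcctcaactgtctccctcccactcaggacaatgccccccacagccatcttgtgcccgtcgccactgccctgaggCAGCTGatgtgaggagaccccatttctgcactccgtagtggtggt
Sema7a, chr9:57939862-57940161, plus strand: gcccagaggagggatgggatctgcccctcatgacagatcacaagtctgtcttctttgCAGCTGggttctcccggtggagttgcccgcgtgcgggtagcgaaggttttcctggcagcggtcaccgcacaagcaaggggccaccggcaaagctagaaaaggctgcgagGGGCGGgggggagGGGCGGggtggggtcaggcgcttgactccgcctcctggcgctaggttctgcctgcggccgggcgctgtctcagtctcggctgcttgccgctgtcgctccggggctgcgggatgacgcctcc
Plxnd1, chr6:115994956-115995255, minus strand: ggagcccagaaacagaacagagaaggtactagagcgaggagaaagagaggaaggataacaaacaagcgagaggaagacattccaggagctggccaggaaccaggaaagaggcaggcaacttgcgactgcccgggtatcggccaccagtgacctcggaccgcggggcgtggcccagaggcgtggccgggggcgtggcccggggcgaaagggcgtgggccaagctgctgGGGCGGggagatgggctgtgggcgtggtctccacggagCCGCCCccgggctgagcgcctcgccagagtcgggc
The Plxnb3 window held 1 SOX core and 2 E-boxes and no GC box, with 4 CpG dinucleotides. The windows of Sema7a and Plxnd1 each held 2 GC boxes and 23 CpG dinucleotides, and that of Sema7a also 1 E-box. Sema4d has 3 windows, of which 1 held a GC box, 1 an E-box and 1 none of the motifs. Of the 31 genes 26 had a window (37 windows in all). A GC box was in 73.0% of these and in 35.7% of all 32851 windows, and the median GC content was 63.7% against 52.7%. The SOX core was in 21.6% and 18.7%, the MYRF cores in 13.5% and 7.10%, and the E-box in 16.2% and 16.3%. These are counts of letters and say nothing about binding.

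Other genes of the pathway were read from lists of receptors, ligands and effectors. Of 52 tested, 4 fell (7.69%) and 1 rose (1.92%), with a median log2 fold change of 0.18. Over all 16569 genes tested 5.70% were lower and 1.87% higher, so the pathway shares were near the background. In the list of 15 co-receptors and alternative receptors 1 fell and 1 rose (6.67% each). Among 15 co-receptors and alternative receptors, Cntn2, a contactin of axons and oligodendrocytes, fell from 968 ± 108 CPM to 123 ± 55.8 CPM (-2.97 ± 0.34, adjusted p = 0.00368). Itga1, an integrin chain that pairs with the beta1 chain Itgb1 as a receptor of Sema7a, rose from 0.639 ± 0.165 CPM to 2.30 ± 0.972 CPM (1.84 ± 0.40, adjusted p = 0.0374). Some of its exon bases also belong to Gm49395 on the same strand. Its adjusted p was 0.0569 with limma-voom and 0.0523 to 0.152 on dropping any control or cuprizone replicate 30 or 32. No pathway gene rose on dropping any control or cuprizone replicate 30, and 2 effectors rose without cuprizone replicate 32. Trem2 and Tyrobp, which form a complex with plexin-A1 in myeloid cells, had log2 fold changes of 1.21 and 0.98 with overlapping groups and adjusted p of 0.199 and 0.325. Both are also microglia markers.

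Of 5 VEGF family genes, whose products bind neuropilins, none passed by edgeR, by DESeq2 or by limma-voom, and the unadjusted p was under 0.05 for 1. Pgf and Vegfc had the smallest adjusted p, 0.157 and 0.230, and Vegfa was at 55.4 ± 5.12 CPM and 59.9 ± 13.9 CPM. Among 32 intracellular effectors 3 fell (9.38%, against 5.70% of all genes tested). Rap1a, a small GTPase of the kind that the plexin GAP domain switches off, went from 39.9, 37.7 and 36.0 CPM to 11.5, 14.9 and 11.8 CPM (-1.57 ± 0.14, adjusted p = 0.00162). Dpysl2, a collapsin response mediator that relays Sema3a signals to microtubules, went from 367, 322 and 401 CPM to 161, 172 and 165 CPM (-1.13 ± 0.14, adjusted p = 0.00419). Msrb1, which reverses the oxidation of actin by MICAL enzymes, went from 58.1 ± 6.57 CPM to 31.7 ± 3.68 CPM (-0.87 ± 0.14, adjusted p = 0.0111, and 0.0566 without control replicate 26). For Rap1a and Dpysl2 the groups were far apart in every library, and both passed in all 13 other fits. The MICAL enzymes themselves, Mical1, Mical2 and Mical3, had log2 fold changes of 0.27, 0.57 and -0.37 and did not pass.

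In the other guidance families, 6 of 39 tested genes fell (15.4%) and none rose with edgeR or limma-voom on all 6 libraries. Over all genes tested 5.70% were lower and 1.87% higher with edgeR. The groups did not overlap for 17.9% of the list lower in cuprizone and 10.3% higher. Over all genes these shares were 17.6% and 12.6%, so by this measure the list was near the background. In the list 13 genes had an unadjusted p under 0.05 with edgeR, and DESeq2 gave 6 lower and 1 higher. Only 3 fell without control replicate 24 or 26 or cuprizone replicate 30 (and 1 rose without control replicate 26), and 4 without control replicate 27 or cuprizone replicate 31. Unc5b, a netrin receptor, went from 430, 431 and 430 CPM to 43.5, 86.7 and 32.7 CPM (-2.99 ± 0.36, adjusted p = 0.00430). Efnb3, a transmembrane ephrin, went from 974 ± 64.7 CPM to 220 ± 90.4 CPM (-2.15 ± 0.29, adjusted p = 0.00697). Efna1 and Efna2, which encode lipid-anchored ephrins, went from 15.1 and 17.6 CPM to 5.08 and 8.74 CPM, and the Eph receptors Epha1 and Ephb1 had log2 fold changes of -2.18 and -0.92. Epha1 and Ephb1 share exon bases with Zyx and Gm26846, both on the opposite strand, and Epha1 was at 2.14 ± 0.116 CPM in control. Neither passed on dropping any library but cuprizone replicate 32 (adjusted p from 0.0567 to 0.125), and Efna1 did not on dropping control replicate 24 or 26 or cuprizone replicate 30 (0.0567 to 0.0679). In log2 fold change the falls of Unc5b, Efnb3 and Epha1 were each larger than any in the semaphorin, plexin and neuropilin genes. The part of a smaller share of oligodendrocyte RNA in the falls of the pathway and guidance genes was not tested.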

How the data were processed

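The authors deposited raw read counts per Ensembl mouse gene for 6 libraries. Tagged ribosomes were immunoprecipitated from frozen tissue and Kapa libraries sequenced, per the labels' protocols. The submitters' processing notes name bcl2fastq 2.17 and mm10. The aligner, counter, annotation and use of strand were not stated. Groups came from sample titles, which also name the columns. The groups share no replicate number and no batch is given.

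Names, spans and exon lengths came from GENCODE M21 (GRCm38), which held 37607 of 39017 identifiers. The test was edgeR 4.0.16 (R 4.3.3, limma 3.58.1) on the deposited counts, with filterByExpr (minimum count 10, minimum total 15; 16569 genes kept), TMM scaling (factors 0.9152 to 1.108), the robust 2-sided quasi-likelihood test and Benjamini-Hochberg adjustment over all genes tested. CPM uses TMM-scaled sizes. A permutation of 3 against 3 cannot give a p below 0.1, so none was made. The procedure was tested on simulated counts in which each gene had the same spread in every library. That setting holds no library unlike the rest of its group, as replicate 32 was, so it does not vouch for the calls here. Alternatives were other scalings and filters, DESeq2 1.42.0, limma-voom and leaving out each library.

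All members are described; those past the threshold and the 5 highest per kilobase get full values. Pathway lists are represented by genes past the threshold or the 2 smallest adjusted p, and cell lists by their first 2 genes, of which 1 is not reported here. Sox10, Drd2 and further list genes were named after their values were seen. List genes Lhfpl3 and Ntn3 had no match by name. Members and lists were chosen with earlier results of these data known.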

Additional observations from a re-analysis of the deposited data

How the results depend on the processing

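The count of members higher in cuprizone was 1, and 4 with DESeq2. It ran from 0 to 2 with a library left out, and the count of lower members, 4, ran from 0 to 4. The count of pathway genes higher in cuprizone was 1, with 5 with DESeq2, 0 with limma-voom and 0 to 2 with a library left out, while that of lower pathway genes was 3 to 5 in every fit. The 5 members past the threshold all passed without a filter, with a filter of CPM above 1 in at least 3 libraries, with limma-voom, with DESeq2 and with TMM factors that ignored myelin markers and the top 20 genes by abundance. With RLE or upper-quartile scaling 4 of them passed. Fold changes near 0 changed sign in some fits with a library left out, and the cause was not tested. Over these fits Plxna3 ran from -0.11 to 0.21, Plxnb1 from -0.42 to 0.10, Sema3g from -0.05 to 0.68, Sema4g from -0.06 to 0.31, Sema5b from -0.06 to 0.10 and Sema6c from -0.07 to 0.19. Plxna3 had -0.09, -0.01, -0.11 and -0.06 without control replicate 24, control replicate 27, cuprizone replicate 30 and cuprizone replicate 31. Plxnb1 had 0.10 and Sema6c -0.04 without cuprizone replicate 32. Sema6c had -0.06 without control replicate 24 and -0.07 without cuprizone replicate 30. Sema3g had -0.05 and Sema5b -0.06 without control replicate 27, and Sema4g had -0.06 without cuprizone replicate 30. Over all genes, 310 were higher and 945 lower, against 862 and 1400 with DESeq2 and 65 to 464 and 474 to 963 with a library left out. The log2 ratio of the plexin B total, an alternative chosen after seeing the data, was -0.13 and became 0.08 without cuprizone replicate 32. No paired analysis was possible because the groups share no replicate number. Sema3g rested on 7 to 20 reads a library, which limits what its values can show.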

Other observations

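Of 16 neuron markers 1 rose, the dopamine receptor gene Drd2, which was at 9.08 to 15.7 CPM in the controls and 24.3 to 35.1 CPM with cuprizone (adjusted p = 0.0236 with edgeR). The call was lost without control replicate 24 (0.0742), control replicate 26 (0.0868) or cuprizone replicate 30 (0.0550). DESeq2 gave 3 higher in this list. The median log2 fold change of the list was 0.47. Rbfox3 and Snap25 were at 174 and 576 CPM in control and 258 and 653 CPM in cuprizone. Of 14 astrocyte markers none passed with edgeR or limma-voom, 1 was lower with DESeq2, and 1 had an unadjusted p under 0.05. Without cuprizone replicate 31 1 was lower, and without cuprizone replicate 32 1 was higher. Gfap was at 5995 ± 2254 CPM and 9483 ± 2349 CPM, and Aqp4 at 358 ± 49.6 CPM and 268 ± 113 CPM (SD, n = 3). Of the microglia list, Cx3cr1 was at 200 CPM and 309 CPM (adjusted p = 0.292) and P2ry12 at 44.1 CPM and 36.2 CPM (adjusted p = 0.403).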
